A study of Mus musculus with 2 samples.

Results

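The claudins described here are 8 genes of the tight junction (Cldn2, Cldn3, Cldn4, Cldn7, Cldn8, Cldn12, Cldn15 and Cldn23), taken by name from the 16665 genes listed in single-cell RNA-seq of mouse ileal enteroids, which are self-organising cultures grown from intestinal crypts. All 8 were listed in both libraries. The study asked how loss of Taf4, which encodes part of TFIID, the complex that recognises core promoters, changes gene expression in the intestinal epithelium, and it provides 1 control library and 1 knockout library. Crypts came from the ileum of 4-month-old mice of strain C57Bl6/129sv, and the cultures were sorted for live cells before droplet capture and 3′ sequencing. The control was labelled WT and ethanol. The study's methods describe it as Taf4 lox/lox enteroids, which carry the floxed allele without Cre, given 4-hydroxytamoxifen (4-OHT). The other library was labelled KO and 4OHT, and is described as Taf4 lox/lox::VilCreERT2 enteroids (Taf4 IEC), in which the villin promoter drives a tamoxifen-inducible Cre in epithelial cells, given 1 µM 4-OHT for 3 days. Label and methods differ on whether the control received 4-OHT, so Cre, drug and deletion cannot be told apart. Whether crypts of several mice were pooled was not given in the sources used here.

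The row of the targeted gene did not fall in the library labelled KO. Taf4 had 278 unique molecular identifiers (UMIs, each standing for 1 captured transcript) in the control, or 0.0696 per 10000 UMIs of all genes (95% exact Poisson interval 0.0617 to 0.0783), and 236 in the library labelled KO, or 0.0944 (0.0828 to 0.107). The exons removed were not given in the sources used here, and a 3′ count can fall outside them, so this row does not check the deletion. The control held 2563 cells and 39947009 UMIs, and the library labelled KO held 1811 cells and 24990128 UMIs. The median cell had 16749 and 2254 UMIs, and 17.3% and 49.1% of cells were under 2000. The files shared 2 cell barcodes. Epithelial markers (Epcam, Cdh1, Krt8, Vil1) summed to 24.8 and 37.6 per 10000, and 5 listed markers of immune, endothelial and mesenchymal cells to 0.00951 and 0.0300 (1 of the 5 at 0 in each library). With 1 library a group there was no replicate check. No p-value was computed, every interval covers counting error only, and differences in level cannot be told apart from differences between the 2 cultures or captures.

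Claudins are membrane proteins with 4 transmembrane helices. They polymerise into the tight junction strands that seal neighbouring epithelial cells and set which ions pass between them. Pore-forming members open a paracellular path: Cldn2 passes cations and water and is known from crypts, Cldn15 passes sodium in the small intestine, and Cldn12 has been linked to calcium passage. Cldn3, Cldn4, Cldn8 and Cldn23 tighten the barrier, and Cldn23 is known from the differentiated upper epithelium. Cldn7 lies along the basolateral membrane as well as in junctions, where it binds Epcam. Stem cells at the crypt base give rise to absorptive enterocytes and to secretory Paneth, goblet, enteroendocrine and tuft cells, and claudin use is known to change along this path.

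Promoters are shown for Cldn2, Cldn4 and Cldn15, since TFIID acts at the start site and these genes differed between classes and libraries. They were picked after their levels had been seen, and other members, such as Cldn23 and Cldn8, also differed between classes. RefSeq promoters (build GRCm38.p6) were matched for 6 of 8 members, the exceptions being Cldn8 and Cldn23. The 250 bases before the start are given 5′ to 3′ on the strand of the gene, with matches to any of 3 searched motifs in capitals. TATAAA is the core of the box bound by TFIID. TGANTCA is the site of AP-1 factors. TTTATNG is a site of the intestinal Cdx factors. Both strands were searched, and no match overlapped another.
Cldn2, X chromosome, plus strand, chrX:139800558-139800807: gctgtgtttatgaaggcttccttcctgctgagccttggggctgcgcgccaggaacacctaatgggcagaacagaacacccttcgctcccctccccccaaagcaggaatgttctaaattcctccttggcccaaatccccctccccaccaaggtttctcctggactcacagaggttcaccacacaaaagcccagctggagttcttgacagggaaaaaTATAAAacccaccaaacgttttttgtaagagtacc
Cldn4, chromosome 5, minus strand, chr5:134946935-134947184: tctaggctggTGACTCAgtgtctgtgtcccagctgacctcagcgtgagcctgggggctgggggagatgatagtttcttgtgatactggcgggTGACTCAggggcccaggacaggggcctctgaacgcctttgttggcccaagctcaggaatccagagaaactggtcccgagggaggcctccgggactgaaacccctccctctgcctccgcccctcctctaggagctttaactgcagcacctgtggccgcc
Cldn15, chromosome 5, plus strand, chr5:136967619-136967868: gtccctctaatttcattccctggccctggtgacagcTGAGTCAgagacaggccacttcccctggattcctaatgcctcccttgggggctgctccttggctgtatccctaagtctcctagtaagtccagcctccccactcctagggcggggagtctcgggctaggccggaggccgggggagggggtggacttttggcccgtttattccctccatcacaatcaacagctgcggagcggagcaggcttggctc
Cldn2 had a TATAAA match 35 to 30 bases before its start, Cldn4 had 2 TGANTCA matches (240 to 234 and 158 to 152 bases before) and Cldn15 had 1 (214 to 208). Over all 32851 promoters of the table, 12.4% of the same windows held TATAAA, 6.75% held TGANTCA and 9.81% held TTTATNG. The 6 windows of Cldn3, Cldn7 and Cldn12 held none of these letters, and a match is a description of the sequence only.

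Cldn7 and Cldn3 were the most counted members, and the 8 claudins spanned a range of about 2 orders of magnitude in UMIs per 10000 (a 3′ count gives 1 UMI per captured transcript whatever its length). Cldn7 held 8.13 UMIs per 10000 in the control and 8.28 in the library labelled KO. Cldn3 held 3.90 and 5.57, and Cldn15 held 1.83 and 2.14. Of all claudin UMIs, Cldn7 made up 54.2% in the control and 47.5% in the library labelled KO, Cldn3 most of the rest, and Cldn15 12.2% and 12.3%. Next came Cldn2 at 0.390 and 0.550 and Cldn4 at 0.368 and 0.504, whose intervals overlapped within each library. Cldn8 held 0.196 and 0.147, Cldn23 held 0.111 and 0.139, and Cldn12 held 0.0701 and 0.103. The order was the same in both libraries, although the intervals of Cldn8 and Cldn23 overlapped in the library labelled KO. Another 6 Cldn genes were listed, of which Cldn11 alone passed 50 UMIs, with 71 and 54.

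**Figure D1:**
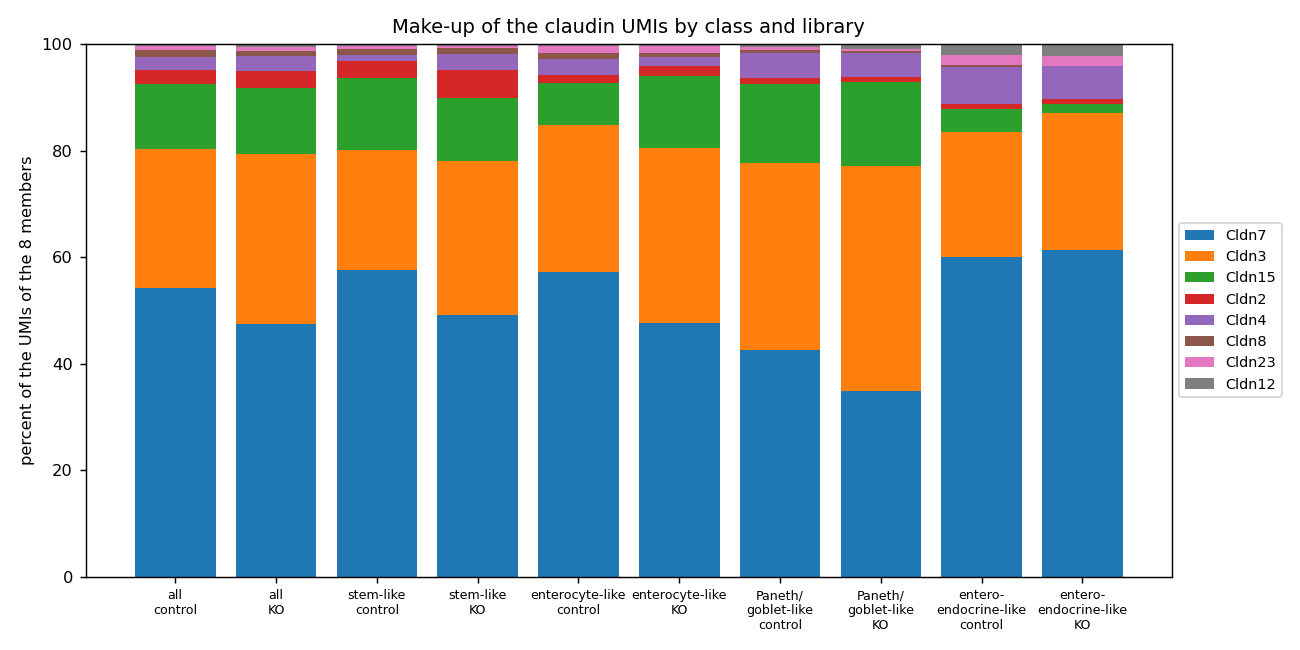
Make-up of the claudin UMIs. Each bar is 1 class of cells in 1 library, and the colours give the percent of the UMIs of the 8 members that each gene holds: Cldn7 and Cldn3 fill most of every bar, and Cldn15 (green) shrinks to 4.28% and 1.67% in enteroendocrine-like cells of the control and the library labelled KO.

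Between the libraries, none of the 8 claudins differed by 2-fold over all cells, against 8.31% of 11941 genes that were at least 2-fold higher in the library labelled KO and 4.38% at least 2-fold lower (counting genes with 50 or more UMIs over both sums). The log2 ratio of the library labelled KO over the control was 0.56 for Cldn12 (95% exact binomial interval 0.31 to 0.81), 0.51 for Cldn3 (0.48 to 0.55), 0.50 for Cldn2 (0.39 to 0.60) and 0.45 for Cldn4 (0.34 to 0.56). It was 0.32 for Cldn23 (0.11 to 0.52), 0.23 for Cldn15 (0.18 to 0.28) and 0.03 for Cldn7 (0.00 to 0.05). Cldn8 alone lay below 0, at -0.41 (-0.59 to -0.23). The median over all genes was 0.17, and it moved to -0.01 when mitochondrial, ribosomal protein and 2 rRNA-linked genes, which took 41.7% of control UMIs and 33.8% of those in the library labelled KO, were left out of the total. Relative to that median, Cldn12, Cldn3, Cldn2, Cldn4, Cldn23 and Cldn15 lay above it and Cldn7 and Cldn8 below, and Cldn7 turned to -0.16 with the smaller total. Cldn23 turned to -0.07 when each cell was given equal weight. The median of the 8 members was 0.39.

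Cells were then grouped into classes by markers, with clusters formed without any Cldn gene. The control had 920 stem-like cells in 4 clusters, 302 enterocyte-like cells in 2, 273 Paneth/goblet-like cells in 1 and 265 enteroendocrine-like cells in 3. The library labelled KO had 449 stem-like cells in 4 clusters, 313 enterocyte-like in 2, 188 Paneth/goblet-like in 2, 200 enteroendocrine-like in 2 and 15 tuft-like in 1. A further 803 and 646 cells lay in clusters left unnamed. In the library labelled KO these included clusters of 488 and 105 cells. They met 4 enteroendocrine and 5 stem markers, but had a low-quality gene and no marker of that class among their leading genes. The median UMIs of a named class ran from 9930 (enteroendocrine-like) to 21561 (stem-like) in the control and from 6258 (Paneth/goblet-like) to 34415 (enterocyte-like) in the library labelled KO.

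**Figure D2:**
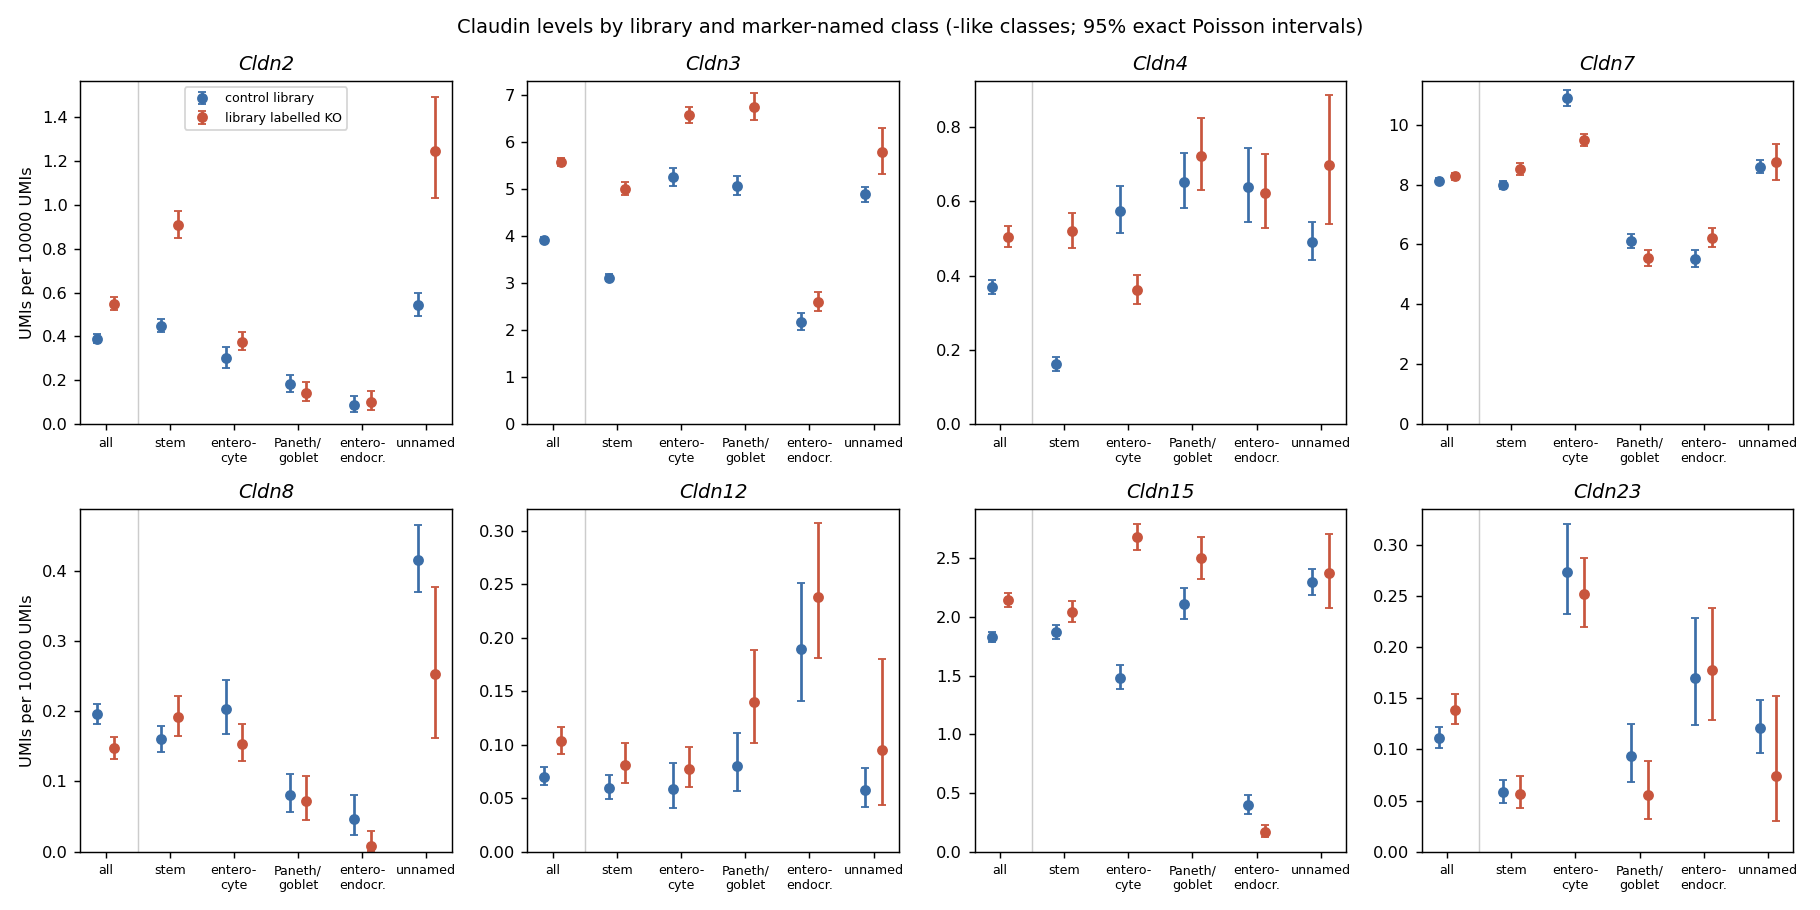
Level of each claudin by library (blue, control; red, library labelled KO) and by class, in UMIs per 10000 UMIs of all genes on axes that start at 0, with 95% exact Poisson intervals. Of the 4 classes found in both libraries, Cldn2 and Cldn15 are lowest in enteroendocrine-like cells, Cldn23 is highest in enterocyte-like cells, and Cldn4 in stem-like cells is 0.161 in the control and 0.521 in the library labelled KO.

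Cldn2, the crypt pore claudin, was highest in stem-like cells among the named classes of both libraries. Its level per 10000 in the control was 0.448 (stem-like), 0.301 (enterocyte-like), 0.182 (Paneth/goblet-like) and 0.0852 (enteroendocrine-like). The library labelled KO held 0.909, 0.375, 0.143 and 0.101 in the same order. Intervals overlapped only between the last 2 classes of the library labelled KO; the 15 tuft-like cells had 2 UMIs. Within the enterocyte-like class Cldn2 split by cluster: the cluster led by Apoc3, Fabp1 and Apoa1 (lipid absorption genes) held 0.167 in the control and 0.129 in the library labelled KO, while the other enterocyte-like cluster, led by 2610528A11Rik and Fabp6 in the control and by Tmem237 and Lgals3 in the library labelled KO, held 0.526 and 0.624. The stem-like clusters ran from 0.345 to 0.505 in the control and from 0.767 to 1.19 in the library labelled KO. In each library the highest cluster was an unnamed one, at 0.607 and 1.63. The Apoa1-high cluster thus lay below all stem-like clusters in both libraries, and the other enterocyte-like cluster did so only in the library labelled KO.

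Cldn15, the sodium pore of the small intestine, did not follow Cldn2. Stem-like cells of the control held 1.87, enterocyte-like cells 1.48, Paneth/goblet-like cells 2.11 and enteroendocrine-like cells 0.395. The library labelled KO held 2.04, 2.68, 2.50 and 0.169, and the intervals of its enterocyte-like and Paneth/goblet-like cells overlapped. The lowest cluster for Cldn15 in either library was enteroendocrine-like, at 0.224 (168 control cells led by Gcg, Nts and Cck) and 0.136 (128 cells led by Chgb, Nts and Chga). A control cluster of 54 cells led by Tac1, Chgb, Chga and Tph1 (the last a marker of enterochromaffin cells) held 0.951. The 15 tuft-like cells held 0.982, from 21 UMIs.

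Cldn12 was low throughout. Enteroendocrine-like cells held the most, at 0.190 in the control (49 UMIs) and 0.238 in the library labelled KO (59 UMIs). Stem-like cells held 0.0598 and 0.0813, enterocyte-like cells 0.0587 and 0.0773, and Paneth/goblet-like cells 0.0805 and 0.140. Only the enteroendocrine-like class stood clear of the stem- and enterocyte-like classes by its interval in both libraries, and in the library labelled KO its interval (0.181 to 0.307) overlapped that of Paneth/goblet-like cells (0.101 to 0.188).

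Among the barrier claudins, Cldn3 was highest in enterocyte-like and Paneth/goblet-like cells and lowest in enteroendocrine-like cells. Control levels were 5.25 (enterocyte-like), 5.06 (Paneth/goblet-like), 3.11 (stem-like) and 2.17 (enteroendocrine-like). Those in the library labelled KO were 6.57, 6.74, 5.00 and 2.59, and the first 2 classes overlapped in both libraries. Within the stem-like class Cldn3 was lowest in the clusters led by S phase genes (Rrm2, Pclaf, Hells), apart from a histone-led cluster of 14 cells with 14 Cldn3 UMIs. The S phase clusters held 2.61 in the control and 3.45 in the library labelled KO, against 3.25 and 5.23 in the clusters with Olfm4 (a stem cell gene) among their leading genes.

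Cldn23 was higher in enterocyte-like than in stem-like cells of both libraries, at 0.274 against 0.0583 in the control and 0.252 against 0.0567 in the library labelled KO. Enteroendocrine-like cells held 0.170 and 0.178, and Paneth/goblet-like cells 0.0932 and 0.0553. The Apoa1-high enterocyte-like clusters held 0.332 and 0.317 and the other enterocyte-like clusters 0.177 and 0.187. The intervals of the 2 libraries overlapped in each of these classes and clusters.

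Cldn8 differed between clusters within the enterocyte-like class. Enterocyte-like cells held 0.203 in the control and 0.153 in the library labelled KO, with intervals that overlapped those of stem-like cells at 0.160 and 0.191. The Apoa1-high clusters held 0.0482 and 0.0446, and the other enterocyte-like clusters 0.464 and 0.263. Paneth/goblet-like cells held 0.0805 and 0.0716, and enteroendocrine-like cells 0.0465 (12 UMIs) and 0.00807 (2 UMIs). The highest Cldn8 levels lay outside the named classes, at 0.577 in a control cluster of 247 cells led by Nupr1 and Tmem237 and at 0.355 in a cluster of 53 cells of the library labelled KO led by Ly6d, Areg and S100a6 (15 UMIs). Cldn8 itself was among the leading genes of the first cluster and Cldn2 among those of the second. The control cluster was also the highest of its library for Cldn2 (0.607) and Cldn15 (2.56). The cluster of 53 cells was also the highest of its library for Cldn2 (1.63), Cldn3 (6.94), Cldn4 (1.07) and Cldn7 (9.64).

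Cldn7, the basolateral member, had the smallest ratio of highest to lowest class. In the control it ran from 5.53 in enteroendocrine-like and 6.12 in Paneth/goblet-like cells to 7.99 in stem-like and 10.9 in enterocyte-like cells. The library labelled KO had 6.22, 5.54, 8.52 and 9.50. Highest over lowest cluster was 11.5 against 5.12 in the control and 9.64 against 5.46 in the library labelled KO.

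Cldn4, a barrier claudin, was lowest in stem-like cells of the control but not of the library labelled KO. Control stem-like cells held 0.161, under enterocyte-like (0.575), Paneth/goblet-like (0.652) and enteroendocrine-like cells (0.639), whose intervals overlapped. In the library labelled KO stem-like cells held 0.521, enterocyte-like 0.361, Paneth/goblet-like 0.722 and enteroendocrine-like 0.621. The intervals of the libraries overlapped in both secretory classes, while stem-like cells were higher in the library labelled KO and enterocyte-like cells lower. All 4 stem-like clusters of the control (0.0884 to 0.247) lay under 3 of 4 in the library labelled KO (0.461, 0.592 and 0.597, the last from 3 UMIs), and the fourth, an S phase cluster of 33 cells, held 0.236.

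**Figure D3:**
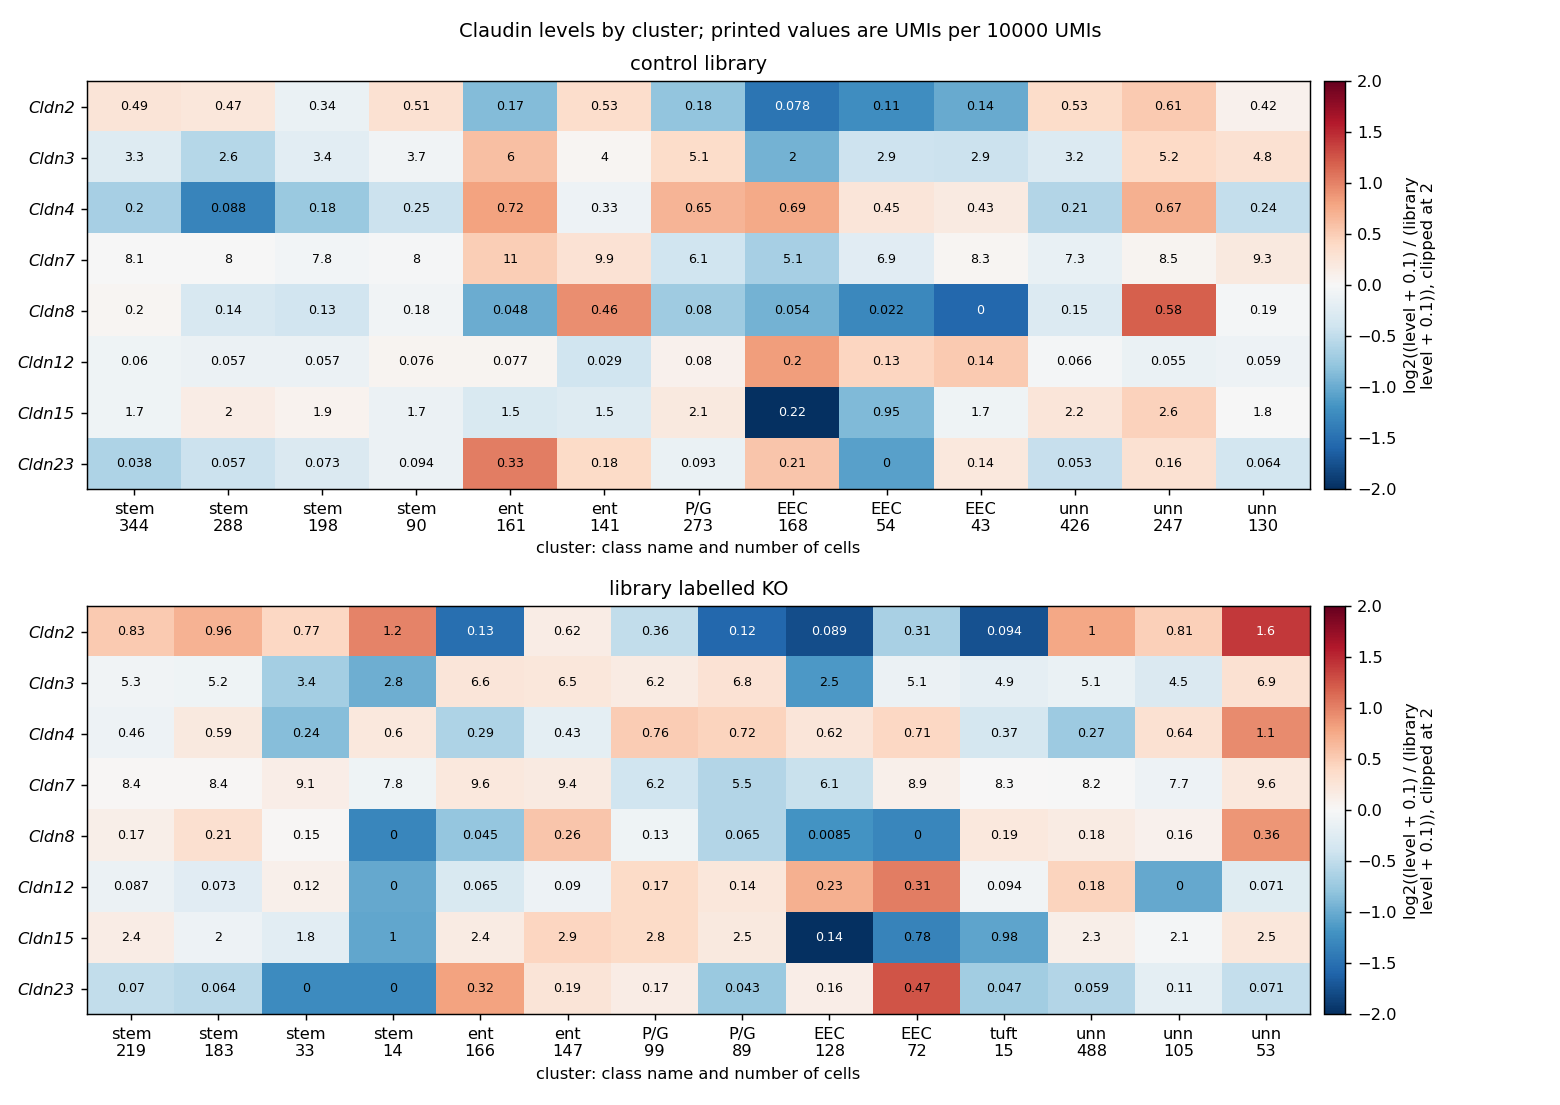
Levels of the 8 claudins in the 13 control clusters (top) and the 14 clusters of the library labelled KO (bottom), grouped by class (ent, enterocyte-like; P/G, Paneth/goblet-like; EEC, enteroendocrine-like; unn, unnamed) with the number of cells. Numbers are UMIs per 10000 (0, no UMI counted) and colour is the log2 ratio to the level over the whole library after adding 0.1; the first enterocyte-like column of each library is blue for Cldn2 and Cldn8 and red for Cldn23, with Cldn4 red in the control (0.717) and blue below (0.292).

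The step from stem-like to enterocyte-like cells can be read as a ratio within each library, which shares 1 capture. Over this step Cldn23 (log2 2.23, interval 1.88 to 2.59) and Cldn4 (1.84, 1.61 to 2.07) passed 2-fold upward in the control and no member passed it downward, against 11.9% of genes up and 29.7% down. The remaining control ratios were 0.76 for Cldn3, 0.45 for Cldn7, 0.35 for Cldn8, -0.03 for Cldn12, -0.34 for Cldn15 and -0.58 for Cldn2. For the library labelled KO, Cldn23 (2.15, 1.72 to 2.61) passed 2-fold upward and Cldn2 (-1.28, -1.46 to -1.09) downward, against 9.24% and 27.4% of genes. The others were 0.39 for Cldn3, 0.39 for Cldn15, 0.16 for Cldn7, -0.07 for Cldn12, -0.32 for Cldn8 and -0.53 for Cldn4. Cldn23 up, Cldn3 up and Cldn2 down were therefore common to both libraries, and Cldn4 and Cldn15 had opposite signs, with all 4 intervals clear of 0. The medians of the members were 0.40 and 0.04, and those of all genes -0.39 and -0.44. The Cldn8 ratio of the control rested on the Apoa1-low cluster and lay between -1.69 and -1.20 under 5 other ways of clustering or naming, the Cldn2 ratio of the library labelled KO came under 2-fold (-0.92) with each cell weighted equally, and its Cldn4 ratio turned to 0.04 in that setting and to 0.31 with markers counted from 2 times the mean level.

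From stem-like to Paneth/goblet-like cells, Cldn4 passed 2-fold upward in the control (log2 2.02, 1.79 to 2.25) and Cldn2 downward (-1.30, -1.64 to -0.98), against 5.99% and 8.52% of genes. In the library labelled KO no member passed it upward, and Cldn2 (-2.67, -3.14 to -2.23) and Cldn8 (-1.42, -2.13 to -0.78) passed it downward, against 7% and 16.6% of genes. With each cell weighted equally these came to -0.75 and -0.77, so neither passed. Cldn3 ratios were 0.70 and 0.43, and Cldn7 ratios -0.39 and -0.62.

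The step to enteroendocrine-like cells moved most of the family. Cldn4 (1.99), Cldn12 (1.67, 1.15 to 2.16) and Cldn23 (1.55, 1.01 to 2.06) passed 2-fold upward in the control and Cldn2 (-2.40), Cldn15 (-2.25, -2.54 to -1.96) and Cldn8 (-1.78) downward, against 16.9% and 10.8% of genes. Cldn12 (1.55) and Cldn23 (1.65) passed it upward in the library labelled KO, and Cldn15 (-3.59, -4.07 to -3.15), Cldn2 (-3.17, -3.81 to -2.60) and Cldn8 (-4.57 from 2 UMIs, -7.62 to -2.69) downward, against 21.7% and 11.5%. With cells thinned to 2000 UMIs, Cldn12 came to 0.11 in the library labelled KO and Cldn23 to 0.68 in the control, both under 2-fold. Both abundant members, Cldn3 (-0.52 and -0.95) and Cldn7 (-0.53 and -0.45), were also lower. The whole family took 9.22 UMIs per 10000 in enteroendocrine-like cells of the control and 10.1 in those of the library labelled KO, against 13.9 and 17.3 in stem-like cells. Markers of other classes were counted in these cells too. The 11 listed stem markers summed to 5.94 and 3.69 per 10000 there, against 22.8 and 20.7 in stem-like cells (1 of 11 at 0 in each library). The 14 enterocyte markers summed to 26.3 and 57.0, against 161 and 153 in enterocyte-like cells (1 at 0 in the control). Among these 14, Apoa1 held 0.170 and 0.214, against 12.5 and 16.1 in enterocyte-like cells. Fabp1 held 0.263 and 0.335, against 34.8 and 26.6. Whether any of this RNA came from other cells, and its part in these ratios, was not tested.

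The libraries were then compared within each class, beginning with stem-like cells. Cldn4 was 3.24-fold higher in the library labelled KO (log2 1.70, 1.49 to 1.91) and Cldn2 2.03-fold (1.02, 0.88 to 1.16), and no member passed 2-fold downward, against 5.84% of genes up and 4.18% down. Cldn2 lay at the threshold and came under it in 7 of the 14 alternatives, down to 0.59 with marker gates in place of clusters. Cldn4 came under it in 1, at 0.96 with markers counted from 2 times the mean level, and then no member passed 2-fold upward. Cldn3 was 0.69 (0.63 to 0.74) and Cldn12 0.44 (0.01 to 0.87). The others were 0.26 for Cldn8, 0.13 for Cldn15, 0.09 for Cldn7 (-0.03 with the smaller total) and -0.04 for Cldn23, and each of these 4 changed sign under at least 1 alternative. The median of the members was 0.35 and that of all genes 0.19. The clusters behind the class differed, since most stem-like cells of the library labelled KO lay in a mitotic cluster of 219 cells (median 2378 UMIs) and an Olfm4 and Lgr5 cluster of 183 cells (median 34923), whereas the control spread over an Olfm4 cluster of 344, an S phase cluster of 288, a mitotic cluster of 198 and a cluster of 90 cells. The 9 cycling markers summed to 12.9 per 10000 in control stem-like cells and 5.82 in the others, the 11 stem markers to 22.8 and 20.7, the 14 enterocyte markers to 5.28 and 7.18 (2 at 0 in the library labelled KO), and the 17 Paneth/goblet markers to 10.2 and 25.1 (1 at 0 there). Their part in the claudin ratios was not tested.

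In enterocyte-like cells no member passed 2-fold in either direction, against 3.61% of genes up and 1.87% down. Cldn15 had the highest ratio at 0.85 (0.74 to 0.97), a level of 2.68 against 1.48, and it stayed between 0.71 and 0.99 under every alternative run. Cldn4 had the lowest at -0.67 (-0.90 to -0.45) and stayed between -1.30 and -0.24. Cldn7 was -0.20 (-0.24 to -0.15) and Cldn3 0.32 (0.26 to 0.39). The signs of Cldn2 (0.32), Cldn8 (-0.40), Cldn12 (0.40) and Cldn23 (-0.12) turned under between 1 and 5 of the 14 alternatives. The members' median was 0.10 and that of all genes 0.09. Enterocyte markers summed to 161 and 153 per 10000 in the control and the library labelled KO, and Paneth/goblet markers to 5.15 and 12.8, with none of either list at 0.

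For Paneth/goblet-like cells no member passed 2-fold, where 3.73% of genes were higher and 4.07% lower. The largest ratios were 0.80 for Cldn12 (0.13 to 1.47) and -0.75 for Cldn23 (-1.65 to 0.08), from 43 against 38 UMIs and 17 against 44. Cldn3 was 0.41 (0.33 to 0.50), Cldn15 0.24 (-0.01 with the smaller total) and Cldn4 0.15 (-0.10 with it). Cldn2 (-0.35, -0.91 to 0.19), Cldn8 (-0.17) and Cldn7 (-0.14) turned to 1.28, 1.13 and 0.13 with each cell weighted equally, a setting in which Cldn12 came to 1.52 and Cldn23 to -1.21, so that 3 members were higher past 2-fold and 1 lower. The members' median was 0.00 and that of all genes 0.03. The 17 Paneth/goblet markers summed to 439 per 10000 in the control and 1393 in the library labelled KO, and 99 of its 188 cells lay in a cluster led by Defa genes with a median of 960 UMIs. In enteroendocrine-like cells Cldn15 was lower past 2-fold, at -1.22 (-1.78 to -0.69) from 42 UMIs against 102, and none was higher, against 1.67% and 5.78% of genes. This call turned to 0.15 with cells thinned to 2000 UMIs and to 0.12 when the condition on leading genes in naming clusters was dropped. The largest clusters of the class held Cldn15 at 0.224 (168 control cells) and 0.136 (128 cells of the library labelled KO). The control class also held the Tph1 cluster of 54 cells, with the higher level given above. The part of this make-up in the call was not tested. Cldn8 (2 UMIs against 12) and Cldn2 (25 against 22) had too few UMIs to be counted. The members' median was 0.12 there and that of all genes 0.28. The 15 enteroendocrine markers summed to 216 per 10000 in the control and 403 in the library labelled KO. In the cells of unnamed clusters, of median depth 2673 and 646.5 UMIs, Cldn2 was past 2-fold higher, at 1.25 (1.03 to 1.49) against 0.543 (0.491 to 0.599), and no member was lower, against 9.45% and 3.45% of genes. Among these cells of the library labelled KO, a cluster of 53 held Cldn2 at 1.63. Its median depth was 4161 UMIs, and Cldn2 was among its leading genes.

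**Figure D4:**
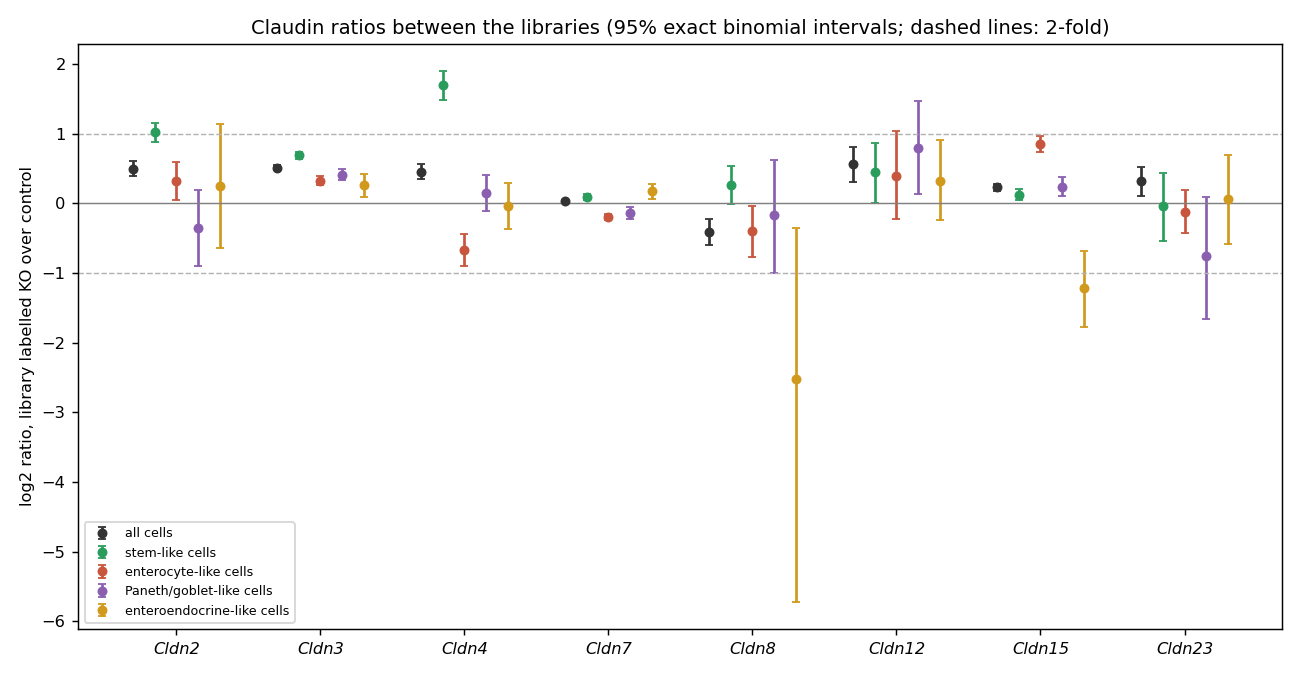
Log2 ratio of the library labelled KO over the control for each claudin, over all cells (black) and in 4 classes, with 95% exact binomial intervals; dashed lines mark 2-fold. Cldn4 sits at 1.70 in stem-like and -0.67 in enterocyte-like cells, Cldn15 at 0.85 in enterocyte-like and -1.22 in enteroendocrine-like cells, and Cldn7 stays near 0 in all of them (its sign over all cells turns with the total used).

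Shares of cells with a UMI were compared after each cell had been thinned to 2000 UMIs, with exact Clopper-Pearson intervals. Cldn4 was counted in 3.28% of 914 control stem-like cells (2.23 to 4.65) and in 8.80% of 341 in the library labelled KO (6.01 to 12.3), or 23.6% and 31.6% unthinned, with 6 and 108 shallower cells left out. In enterocyte-like cells the thinned shares were 10.2% of 284 and 7.22% of 263, whose intervals overlapped (28.1% and 25.6% unthinned), with 18 and 50 left out. Cldn2 was counted in 7.88% of control stem-like cells and 13.8% of those in the library labelled KO (54.1% and 50.1% unthinned, the opposite order). The lowest shares of Cldn2 were in enteroendocrine-like cells, given here because no class is known to lack claudins. They were 1.87% of 214 (4 cells, 0.512 to 4.72) and 0.714% of 140 (1 cell, 0.0181 to 3.92), with 51 and 60 left out. These intervals overlapped those of Paneth/goblet-like cells (1.81 to 6.78 and 1.00 to 9.05). Before thinning, median depths were 9930 and 12199 UMIs, against 21561 and 23709 in stem-like cells.

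A finer view came from the enterocyte markers of each cell, with clusters used only to leave out secretory cells. Cells of at least 2000 UMIs outside the secretory clusters were put in 6 bins by their summed level of 14 enterocyte markers, the smallest holding 40 control cells and 35 of the library labelled KO. Along the bins Lgr5, the stem cell receptor, fell from 2.11 to 0.0112 per 10000 in the control and from 1.99 to 0.00833 in the library labelled KO, while Apoa1, one of the markers used, went from 0.0398 to 37.3 and from 0.0689 to 48.1. Each bin is 1 pool of cells of 1 library, so the trends are descriptions.

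**Figure D5:**
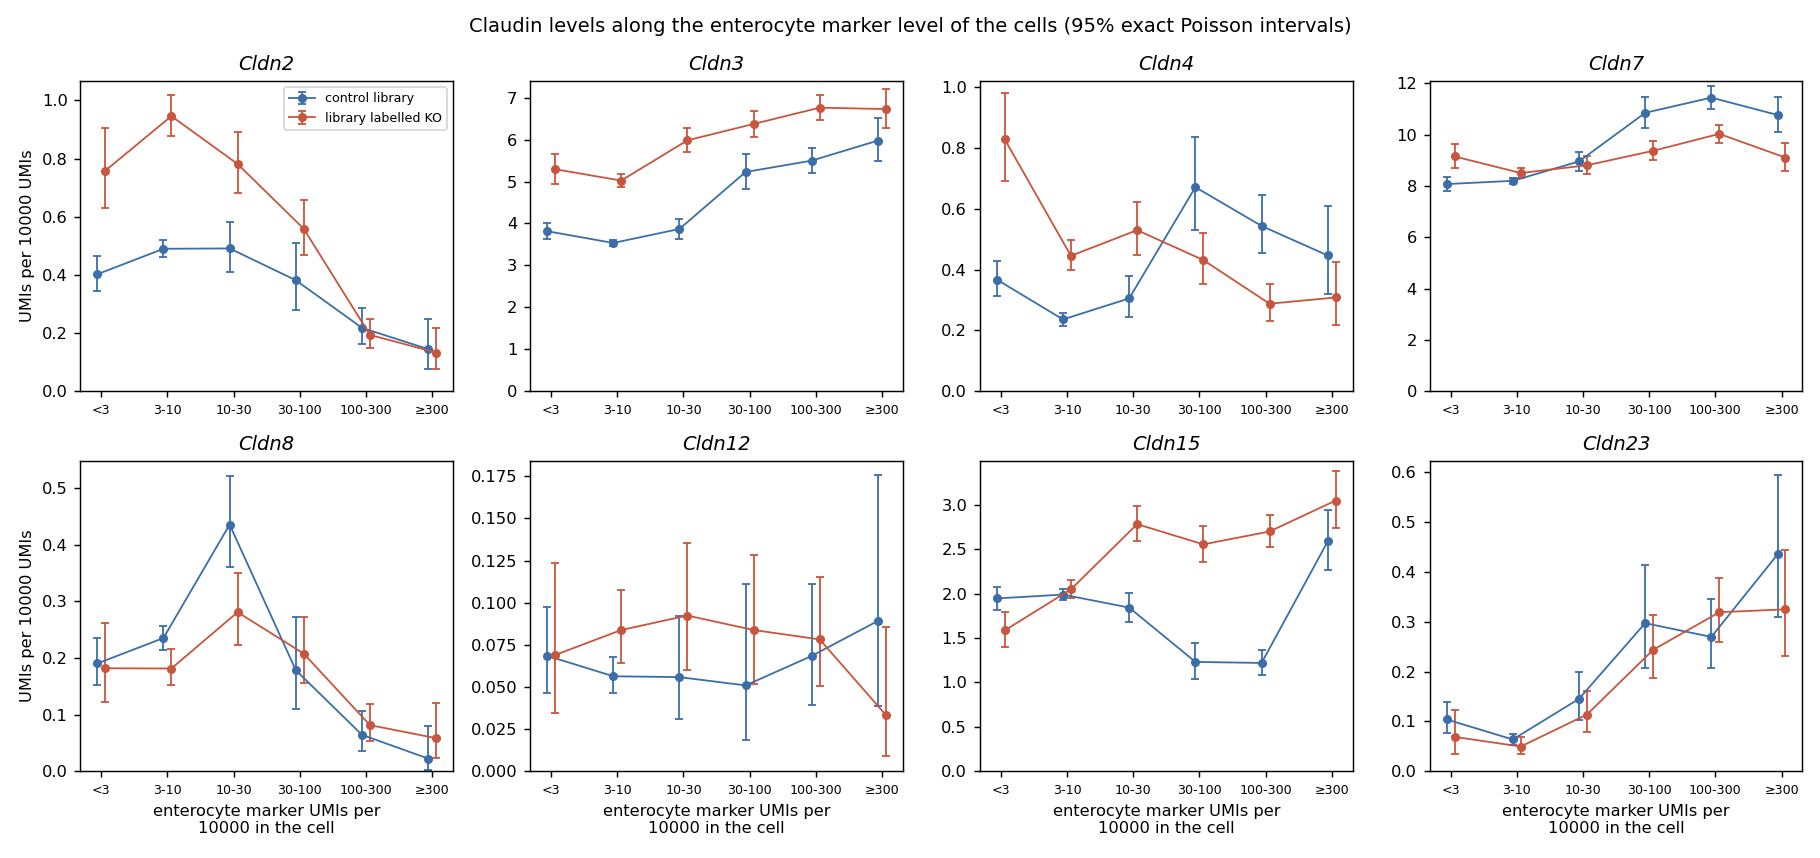
Level of each claudin (UMIs per 10000 UMIs, axes from 0) in 6 bins of cells by their summed enterocyte markers per 10000, from under 3 to at least 300, for the control (blue) and the library labelled KO (red), with 95% exact Poisson intervals. From the second bin to the last, Cldn2 ends lower (0.145 and 0.133) and Cldn23 higher (0.435 and 0.325) in both libraries, after a first bin that runs the other way; Cldn8 peaks in the third bin, and the lines of Cldn4 cross.

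Cldn2 was lowest in the bins of most enterocyte markers in both libraries. In the control it was 0.402 under 3 marker UMIs per 10000, 0.490 at 3 to 10, then 0.491, 0.382 and 0.218, and 0.145 at 300 or more. The library labelled KO held 0.758 under 3, then 0.946, 0.781, 0.559 and 0.194, and 0.133 at 300 or more. The first bin lay under the second in both libraries, with intervals that overlapped. The intervals of the libraries overlapped in the last 3 bins, and in the 3 before them the library labelled KO was higher. Cldn23 held 0.104 in the first bin of the control and 0.0689 in that of the library labelled KO, was lowest in the second, at 0.0636 and 0.0494, and reached 0.435 and 0.325 in the last. Cldn3 had 3.82 and 5.29 in the first bin, 3.54 and 5.02 in the second, and 5.98 and 6.73 in the last.

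Cldn8 was highest in the third bin. It held 0.190 under 3, 0.235 at 3 to 10, 0.435 at 10 to 30, 0.178 at 30 to 100, 0.0641 at 100 to 300 and 0.0223 (2 UMIs) beyond in the control. The library labelled KO had 0.182, 0.181, 0.281, 0.207, 0.0813 and 0.0583. Both peaks were in the same bin, where Lgr5 had dropped to 1.21 and 0.941 and Apoa1 was still at 0.234 and 0.330, and the peak was higher in the control (0.360 to 0.522 against 0.222 to 0.350). In the library labelled KO the peak overlapped both the first bin (0.122 to 0.261) and the next bin in its interval.

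Cldn4 and Cldn15 ran differently in the 2 libraries. Cldn4 was lower in the second bin than in the first in both libraries, at 0.236 after 0.367 in the control and 0.445 after 0.827 in the library labelled KO. From there it went to 0.670 at 30 to 100 and 0.446 at the end in the control, and to 0.431 and 0.308 in the library labelled KO. Cldn15 dipped in the control, from 1.95 under 3 and 1.99 at 3 to 10 to 1.23 at 30 to 100 and 1.22 at 100 to 300, and stood at 2.59 at 300 or more. In the library labelled KO it went from 1.59 under 3 to 2.78 at 10 to 30 and 3.05 at 300 or more. The dip in the control was larger than its counting intervals on either side. Cldn7 ran from 8.07 to 10.8 with its highest bin at 11.4 in the control, and from 9.15 to 9.10 in the library labelled KO with its highest at 10.0. Cldn12 stayed under 0.1 in every bin.

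Partners of the claudins were read from a list of 21 listed genes of the tight junction and its polarity complexes. Over all cells 1 was higher past 2-fold and none lower, against 8.31% and 4.38% of all genes, with a median of 0.36 against 0.17. It was Ildr1, an angulin of tricellular junctions, at 0.132 against 0.0255 per 10000 (log2 2.37, 2.04 to 2.70). Tjp3, a junction scaffold, was -0.32, and Epcam, the Cldn7 partner, -0.12. In stem-like cells 3 were higher, Ildr1 (2.98), F11r, a junctional adhesion molecule (1.21), and Pard6b, a polarity protein (1.13), and none was lower, against 5.84% and 4.18% of genes. Ildr1 (3.12, 1.94 to 4.61, from 83 UMIs against 6) was the only one past 2-fold in enterocyte-like cells (3.61% of genes higher, 1.87% lower). From stem-like to enterocyte-like cells Mpp5, a polarity scaffold, was higher past 2-fold in both libraries (1.75 and 1.43) and Cgnl1, or paracingulin, lower (-3.83 from 2 UMIs and -2.23 from 10). Cxadr, a junctional receptor, was also among those past 2-fold upward in the control (1.35), with Pard6b (1.14), and Lsr (-1.30), another angulin, and Prkci (-1.26), a polarity kinase, were past it downward in the library labelled KO. In all, 3 of 20 partners were higher and 1 lower past 2-fold over that step in the control, and 1 of 21 higher and 3 lower in the library labelled KO, against 11.9% of genes higher and 29.7% lower in the first and 9.24% and 27.4% in the second.

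Across the 27 clusters of both libraries, Pearson's r of log2(UMIs per 10000 + 0.1) named the genes most like each claudin among 9994, as a description over points that share a library and differ in depth. Cldn7 was most like Gsr and Mgst1 (r = 0.89 for each), Cldn3 like Prr15 (0.89) and S100a10 (0.87), and Cldn15 like Suclg2 (0.89) and Ifi27l2b (0.82). Cldn12 was most like Fem1b (0.86) and Dnajc12 (0.85), Cldn2 like Cluh (0.83) and Itpripl1 (0.80), and Cldn23 like Entpd5 (0.81) and Sowaha (0.795). The likeness was weaker for Cldn4, with Pxn (0.74) and Ank3 (0.71), and for Cldn8, with Snhg6 (0.73) and Bcl6 (0.72). Among the claudins themselves r ran from -0.47 for Cldn2 with Cldn12 to 0.64 for Cldn3 with Cldn15, and Cldn2 with Cldn8 had 0.54.

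The genes lie at separate loci of GRCm38.p6 except for Cldn3 and Cldn4, which are neighbours at chr5:134986214-134987476 and chr5:134945123-134946934. Between the libraries their ratios in stem-like cells were 0.69 and 1.70, and in enterocyte-like cells 0.32 and -0.67, so the neighbours differed in both classes by more than their counting intervals. Cldn15, at chr5:136967869-136975845, and Cldn12, at chr5:5505015-5514976, are on the same chromosome. Cldn2 is at chrX:139800808-139811386, Cldn7 at chr11:69964779-69967886, Cldn8 at chr16:88560826-88563183 and Cldn23 at chr8:35824709-35826559.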

How the data were processed

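Ileal enteroids of 1 control library and 1 library labelled KO were profiled by droplet 3′ single-cell RNA-seq. Raw UMI counts were deposited, with genes in rows and cells in columns. According to the study's methods and the submitters' processing notes, the authors demultiplexed reads (bcl2fastq 2.17.1.14), aligned and counted them against mm10 (Cell Ranger 3.1), and analysed in Seurat 3.1.4 the cells in which 200 to 6000 genes were found and the mitochondrial share was below 15%. A UMI is counted once whatever the transcript length, and reads shared by similar genes may be lost.

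Here each library was clustered alone (Seurat 5.3.0 in R 4.3.3; 2000 variable genes without any Cldn gene, 20 components, resolution 0.9). A cluster was named from at least 3 markers with 10 or more UMIs at 1.5 times the mean level of the libraries, provided its 10 leading genes did not go against the name. They did so when they held more markers of another class. They also did so when they held no marker of the class beside a low-quality gene (such as Lars2) or a low median depth. Cell counts were summed per class and divided by all UMIs (Python 3.11.15, numpy 2.4.6, scipy 1.17.1, pandas 2.3.3, matplotlib 3.10.9). Levels carry exact Poisson intervals, ratios exact conditional binomial intervals and shares exact Clopper-Pearson intervals, all at 95%. The interval code was tested on simulated data. Past 2-fold means a log2 ratio of 1 or more in size with at least 50 UMIs over both sums. Scrublet (scanpy 1.11.5) marked 10 control cells (0.390%) and 0 others, and all cells were kept, so doublets were not removed here.

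With 1 library a group there was no test. The members and all lists were chosen with earlier results of these data known. All 8 members were named by rule, with the other Cldn genes of at least 50 UMIs, junction partners among the 3 highest or 3 lowest of a comparison, and the 2 genes most like each member. Comparisons of Paneth/goblet-like and enteroendocrine-like cells under the alternatives were added after seeing the data. The alternatives changed the total, the weight and depth of cells, the UMI minimum, and the clustering and naming.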

Additional observations from a re-analysis of the deposited data

Results flagged for a closer look

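Cldn4 differed in sign between the libraries over the step from stem-like to enterocyte-like cells, with a log2 ratio of 1.84 in the control and -0.53 in the library labelled KO. Between the libraries, the same gene was 1.70 in stem-like cells and -0.67 in enterocyte-like cells.

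Cldn15 also differed in sign over that step, at -0.34 in the control (-0.01 with marker gates) and 0.39 in the library labelled KO. Both values lay above the median of all genes, which was -0.39 and -0.44. The ratio of Cldn15 between the libraries was 0.13 in stem-like and -1.22 in enteroendocrine-like cells. Cldn7 was 0.092 in stem-like cells (-0.03 with the smaller total), -0.20 in enterocyte-like cells and -0.14 in Paneth/goblet-like cells.

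Each of these pairs was picked because the 2 values had opposite signs and intervals clear of 0. With 1 library a group the differences were not tested.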

How the results depend on the processing

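Of 292 counts of members past 2-fold under 14 alternatives, 241 stayed within 1.5 times the reported count and 51 did not. Of 1158 values of single members, 910 stayed within their counting interval, 246 moved outside it, and 2, both past 2-fold as reported, changed sign. The alternative without a UMI minimum could not change a ratio, and the one without predicted doublets removed only 10 control cells. With values under 2-fold included, 66 values changed sign, in 29 of 88 ratios. The cause of these moves was not tested. H and L below stand for counts of members higher and lower, as reported and under the alternative. No paired analysis was possible because each group is 1 library.

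With each cell weighted equally, the library labelled KO over the control gave H 0 to 1 over all cells (Cldn12), H 2 to 1 in stem-like, H 0 to 3 and L 0 to 1 in Paneth/goblet-like and L 1 to 0 in enteroendocrine-like cells. In the same setting Paneth/goblet-like over stem-like gave L 1 to 2 in the control and H 0 to 1 and L 2 to 0 in the library labelled KO, and enterocyte-like over stem-like gave L 1 to 0 there. Leaving mitochondrial, ribosomal protein, Gm42418 and AY036118 genes out of the total gave H 2 to 1 in stem-like cells, L 0 to 1 in Paneth/goblet-like cells and L 1 to 2 for Paneth/goblet-like over stem-like in the control. Thinning to 2000 UMIs gave H 0 to 1 over all cells, H 2 to 1 in stem-like and L 1 to 0 in enteroendocrine-like cells. Thinning also gave, in the control, H 2 to 1 for enterocyte-like and H 3 to 1 for enteroendocrine-like over stem-like, and in the library labelled KO H 1 to 0 for enterocyte-like, L 2 to 1 for Paneth/goblet-like and H 2 to 0 for enteroendocrine-like over stem-like. Several of these drops came from the UMI minimum. Under every alternative the enterocyte-like ratio of Cldn23 was at least 2.01 in the control, and at least 1.37 in the library labelled KO where it had a value. In the control, Cldn4 for enterocyte-like cells was at least 1.62 and Cldn12 for enteroendocrine-like cells at least 1.42. With no minimum of UMIs, L went from 1 to 2 in enteroendocrine-like cells (Cldn8 and Cldn15).

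Clustering at resolution 0.5 gave H 2 to 1 in stem-like, L 0 to 1 in enterocyte-like and L 1 to 0 in enteroendocrine-like cells, and L 0 to 2 for enterocyte-like over stem-like in the control. Resolution 1.4 gave L 1 to 2 for Paneth/goblet-like over stem-like in the control. Clustering both libraries together, or keeping Cldn genes among the variable genes, gave H 0 to 1 in enterocyte-like cells (Cldn8), L 0 to 2 for enterocyte-like and L 1 to 2 for Paneth/goblet-like over stem-like in the control, and the first also gave L 1 to 0 in enteroendocrine-like cells. Markers counted from 2 times the mean gave H 2 to 0 and L 0 to 1 in stem-like cells, L 0 to 1 in enterocyte-like cells, L 0 to 2 for enterocyte-like over stem-like in the control, and H 0 to 1 and L 2 to 1 for Paneth/goblet-like over stem-like in the library labelled KO. Markers counted from 1.5 times the other cells gave H 2 to 1 in stem-like and L 0 to 2 in enterocyte-like cells, L 1 to 2 for Paneth/goblet-like over stem-like in the control and L 1 to 2 for enterocyte-like over stem-like in the library labelled KO. Dropping the condition on leading genes gave H 0 to 1 and L 1 to 0 in enteroendocrine-like cells. Marker gates gave L 1 to 0 in enteroendocrine-like cells, and over stem-like cells L 0 to 2 for enterocyte-like and H 1 to 2 and L 1 to 2 for Paneth/goblet-like in the control, with L 1 to 2 for enterocyte-like and H 2 to 0 for enteroendocrine-like in the library labelled KO. In that last count Cldn23 stood at 2.84 and left by the UMI minimum.

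The sign changes of a value past 2-fold were both of Cldn15 in enteroendocrine-like cells, from -1.22 to 0.15 with thinning and to 0.12 without the condition on leading genes. Among values under 2-fold, the Cldn8 ratio of enterocyte-like over stem-like cells in the control went from 0.35 to as low as -1.69, and Cldn2 in enterocyte-like cells between the libraries from 0.32 to -1.22. Single libraries, the unequal depth of cells and the low counts of Cldn8, Cldn12 and Cldn23 limit these values, and the smallest classes rest on few UMIs.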
